A study of Homo sapiens with 6 samples.

Results

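The genes described here are 50 that encode the machinery that copies DNA, among 19775 human genes that the arrays cover with a probe set of their own. They were chosen by name: the proteins that mark and license replication origins, the helicase and its firing factors, the polymerases, the clamp and its loader, single-strand binding and flap processing proteins, enzymes that make DNA precursors, and fork protection factors. These genes have 95 probe sets, and each gene was read at the probe set with the highest mean log2 signal over all 6 arrays. The cells were Flp-In T-REx 293, which descend from HEK293, a human embryonic kidney line, and accept a transgene at a preset site. In 3 clones, TET1, TET2 and TET3 were knocked down together with siRNA, and the same 3 clones received a non-targeting siRNA pool as control. RNA for all 6 arrays was taken 96 h after treatment, and each clone gave 1 array per treatment. All cells of both groups carried a stable, inducible GFP transgene that was left uninduced, so the series describes clones of 1 transformed line, with partial loss of 3 transcripts, and no untreated or unmodified cells enter it.

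Replication starts when the origin recognition complex, with CDC6 and CDT1, loads the MCM helicase onto DNA in G1. The kinase CDC7 with DBF4, CDC45 and the GINS complex then turn the loaded helicase on, and polymerases held by the PCNA clamp extend primers laid down by primase. Many of these genes are known targets of E2F transcription factors in G1 and S phase. TET enzymes oxidise 5-methylcytosine, which in human cells lies mostly at CpG dinucleotides, and so act in the removal of DNA methylation.

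Promoter sequence was available for 44 of the 50 genes in 55 windows, each running from 250 bases before to 50 bases after a gene start (RefSeq, GRCh38.p14). The search took the E2F motif as TTTGGCGC, TTTCCCGC, TTTGCCGC or TTTCGCGC on either strand, with overlapping matches merged. It was present for 22 of the 44 genes (50%), against 3.99% of all genes of the table and 6.71% of the genes tested on the arrays. The CCAAT box, also on either strand, was present for 59.1% of the replication genes, 39.7% of all genes and 43.4% of the tested genes. With each gene read at its window with the most CpG dinucleotides, the median count was 31 for the replication genes. It was 29 for the tested genes and 16 for all genes. MCM3, MCM6, MCM7 and CDC7 are shown first, each by the window that holds 2 separate E2F matches, with the matches in capitals, because this motif was far more frequent among the replication genes than among all genes. The other windows of MCM7 and CDC7 hold no match.
MCM3 (chr6:52284693-52284992, minus strand): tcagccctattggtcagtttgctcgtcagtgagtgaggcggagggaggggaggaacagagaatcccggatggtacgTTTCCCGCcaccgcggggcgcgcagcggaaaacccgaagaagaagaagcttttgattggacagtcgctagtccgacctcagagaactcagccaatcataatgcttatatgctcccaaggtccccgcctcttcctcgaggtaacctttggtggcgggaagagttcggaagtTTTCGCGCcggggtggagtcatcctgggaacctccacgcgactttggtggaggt
MCM6 (chr2:135876394-135876693, minus strand): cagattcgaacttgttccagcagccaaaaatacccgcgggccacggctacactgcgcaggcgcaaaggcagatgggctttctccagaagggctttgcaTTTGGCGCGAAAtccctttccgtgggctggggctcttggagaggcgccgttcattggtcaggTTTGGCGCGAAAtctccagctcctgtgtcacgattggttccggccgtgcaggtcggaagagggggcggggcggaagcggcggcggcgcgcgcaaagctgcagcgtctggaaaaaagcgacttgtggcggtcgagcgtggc
MCM7 (chr7:100101348-100101647, minus strand): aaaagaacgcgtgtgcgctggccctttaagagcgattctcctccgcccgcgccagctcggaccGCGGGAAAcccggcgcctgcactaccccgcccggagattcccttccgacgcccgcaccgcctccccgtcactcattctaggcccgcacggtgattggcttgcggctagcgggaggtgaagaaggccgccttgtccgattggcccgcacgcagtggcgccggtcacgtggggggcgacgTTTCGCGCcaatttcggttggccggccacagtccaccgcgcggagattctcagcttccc
CDC7 (chr1:91500862-91501161, plus strand): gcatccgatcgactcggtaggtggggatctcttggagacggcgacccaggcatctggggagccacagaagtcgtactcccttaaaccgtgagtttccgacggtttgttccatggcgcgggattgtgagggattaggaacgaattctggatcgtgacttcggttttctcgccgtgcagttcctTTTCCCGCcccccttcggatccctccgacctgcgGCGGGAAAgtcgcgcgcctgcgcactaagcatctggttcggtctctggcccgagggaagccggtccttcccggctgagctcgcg
Both windows of ORC4 are shown with each CpG in capitals, because ORC4 has the largest difference of the 50 genes at their brightest probe sets and because its windows hold no E2F match. The first window holds 26 CpG dinucleotides and the second 4.
ORC4 (chr2:148020688-148020987, minus strand): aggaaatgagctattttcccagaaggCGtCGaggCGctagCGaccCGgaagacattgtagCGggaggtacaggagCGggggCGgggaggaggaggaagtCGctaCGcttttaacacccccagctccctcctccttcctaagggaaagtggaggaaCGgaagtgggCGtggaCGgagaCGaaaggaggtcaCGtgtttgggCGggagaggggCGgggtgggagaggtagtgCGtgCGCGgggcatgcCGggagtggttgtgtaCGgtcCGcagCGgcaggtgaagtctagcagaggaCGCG
ORC4 (chr2:148021502-148021801, minus strand): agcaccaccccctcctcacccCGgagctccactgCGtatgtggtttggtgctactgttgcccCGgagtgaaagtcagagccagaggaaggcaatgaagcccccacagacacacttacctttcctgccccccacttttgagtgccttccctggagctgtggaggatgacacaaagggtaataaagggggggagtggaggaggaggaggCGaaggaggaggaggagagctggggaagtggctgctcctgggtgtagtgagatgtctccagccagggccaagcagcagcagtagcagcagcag
A match describes the letters of a window and is not evidence of binding. No methylation was measured on these arrays.

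The siRNA targets were read first. TET1 signal was 3222 ± 216 (SD, n = 3) in control clones and 585 ± 123 in knockdown clones, which left 17.9% of the control level. TET2 was left at 46.8% and TET3 at 42.9% of control, and all 3 passed the threshold in limma with the clone as a block (Benjamini-Hochberg adjusted p = 1.94e-04, 0.0335 and 0.0196). The signals are MAS5 intensities scaled to a trimmed mean of 1000, and the 6 arrays correlated at 0.972 to 0.986 over the tested probe sets and at 0.934 to 0.944 over all of them. Of the HEK293 line markers on the arrays, 6 of 7 lay above the brightness filter. Their summed signals were 59916 to 64327 in control and 50801 to 61483 in knockdown arrays. The highest mean of a single marker was 35718, so 1 gene makes up much of these sums. Above the filter were also 2 of 6 fibroblast, 1 of 5 leukocyte and 1 of 5 keratinocyte or colon epithelium markers. In bulk RNA, fewer cells in S phase and less RNA per cell cannot be told apart. Nothing in the labels says whether the clones were treated on separate days. With the clone as a block, p-values therefore measure only the spread of within-clone differences on these arrays.

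The replication genes as a whole showed small differences after TET knockdown, and 1 of 50 passed the test. All 50 passed the filter on dim probe sets and were tested. ORC4 was lower at an adjusted p under 0.05 (limma with the clone as a block, Benjamini-Hochberg), and no replication gene was higher. Over all 12318 tested genes, 1.32% passed in either direction and 0.836% passed as lower, so 1 of 50 is near that background. At an unadjusted p under 0.05 there were 5 replication genes, ORC4 and GINS2 lower and POLA1, RFC5 and RPA1 higher, while 16.1% of all genes lay under that value. The median difference of the 50 genes was 0.003 on the log2 scale, with 24 below 0, and the median of all tested genes was 0.007. The differences ran from -0.56 for ORC4 to 0.25 for POLE.

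**Figure D1:**
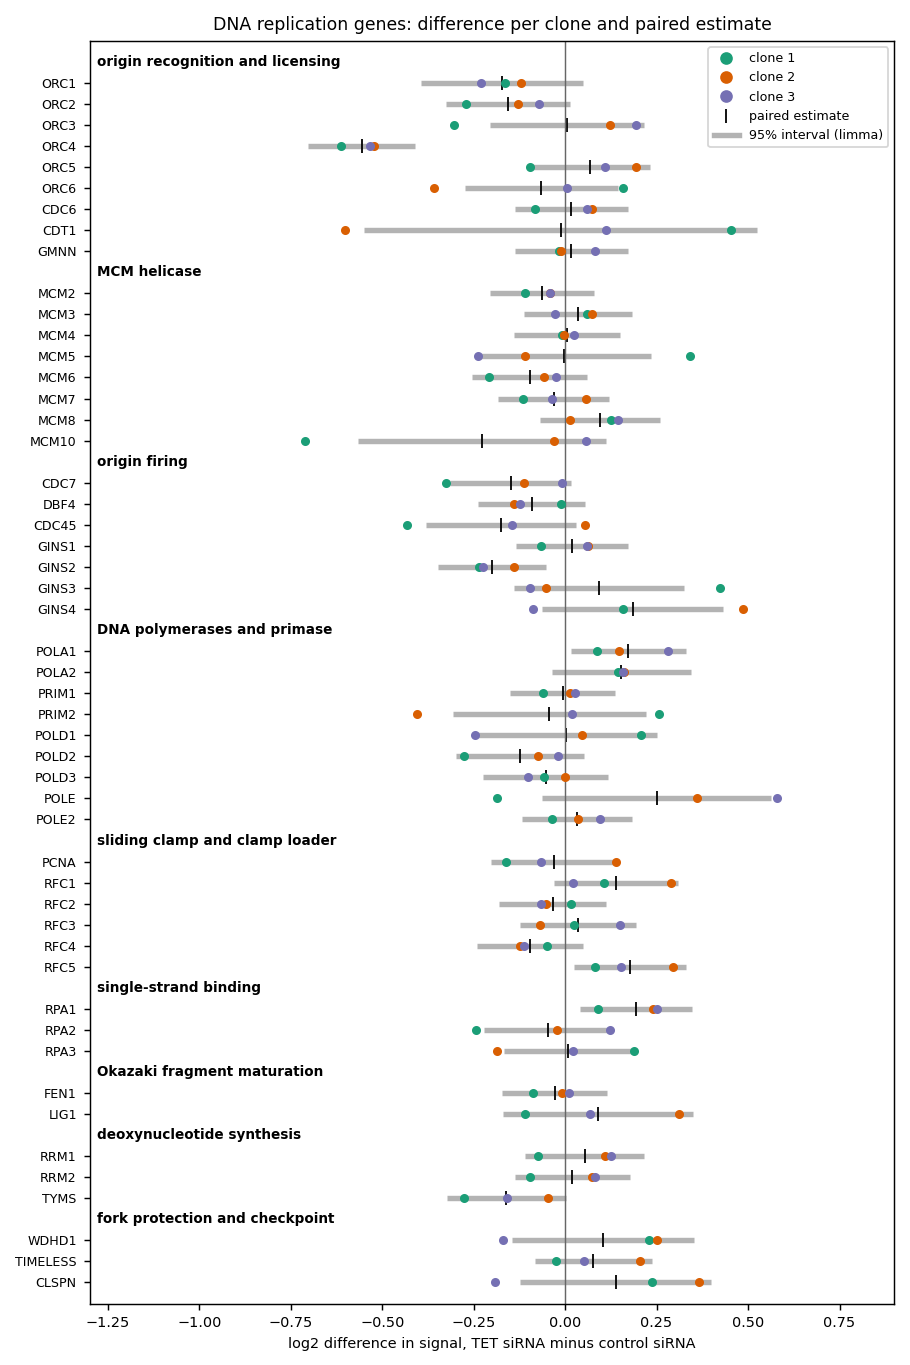
Log2 difference in signal (TET siRNA minus control siRNA, x axis) of the 50 replication genes, grouped by role, with 1 point per clone, the paired estimate as a tick and its 95% interval from limma as a grey bar. The 3 points of ORC4 lie together between -0.61 and -0.52, while the points of CDT1 spread from -0.60 to 0.45.

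The precision of these values was enough to bound most of the genes at their brightest probe set in this fit. There, the 95% interval lay within a 1.5-fold change in either direction for 49 of 50 replication genes, compared with 76.2% of all tested genes. It lay within 0.32 of 0 on the log2 scale for 32 of 50, compared with 41.3%. Replication genes are bright on these arrays, and among the 7393 genes at least as bright as the dimmest of them the shares were 96.3% and 65.9%. Other probe sets of a gene can lie outside such bounds. An MCM10 probe set of similar brightness gave -0.57 (95% interval -0.95 to -0.19). The intervals assume the spread that limma estimates by sharing information between probe sets. Standard errors differed under plain empirical Bayes, and bounded genes were not counted with it. The groups of 3 arrays did not overlap for 7 of 50 genes, ORC2, ORC4, MCM6 and TYMS lower and POLA1, RFC5 and RPA1 higher, against 13.2% of all genes. All 3 clones had 1 sign for 17 of 50 genes, against 37.9% of all genes. An exact permutation test of 3 arrays against 3 that ignores the clones cannot give a two-sided p below 0.1. Permuting only within clones allows fewer arrangements, so its smallest possible p is higher still.

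**Figure D2:**
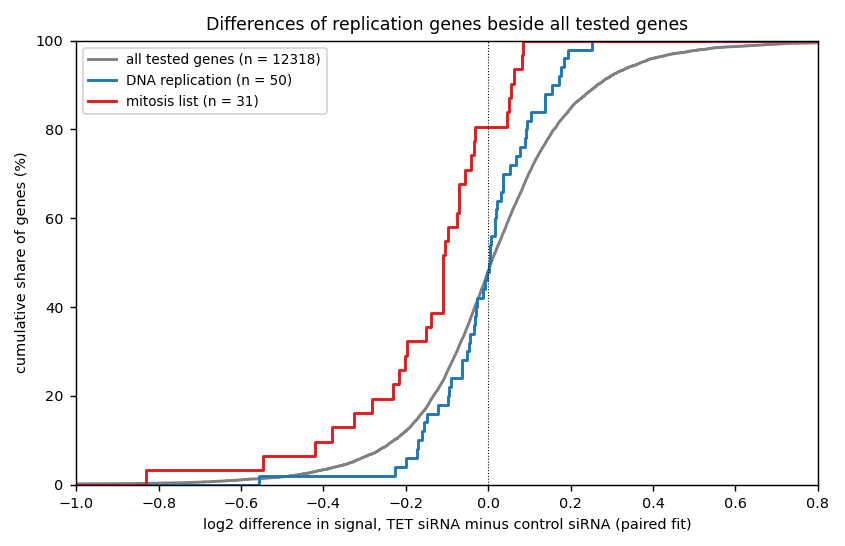
Cumulative share of genes (y axis, percent) by log2 difference in signal (x axis) for all 12318 tested genes, the 50 replication genes and the 31 genes of a mitosis list. The replication curve crosses 0 at 48%, as 24 of 50 genes lie below it, while 25 of the 31 mitosis genes lie below 0.

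Among the genes of origin recognition and licensing, ORC4 stood apart. ORC4, a subunit of the origin recognition complex, had signals of 7598, 7959 and 7693 in control clones 1, 2 and 3, and of 4971, 5540 and 5311 in the same clones with TET siRNA. Every knockdown array was below every control array. The level fell to 68.0% of control (log2 difference -0.56, SE 0.07, 95% interval -0.70 to -0.41), with an adjusted p of 0.00285 in limma with the clone as a block. This call depended on the model. Without the clone as a block the difference was the same with an adjusted p of 0.0832, a fit in which 0.0162% of all genes passed. With plain in place of trended, robust empirical Bayes moderation it was 0.321, a fit in which no probe set on the arrays passed. A second, dimmer ORC4 probe set gave 796, 710 and 597 in control and 519, 589 and 506 in knockdown clones. Its groups did not overlap either, and its difference was -0.38 (SE 0.14) with an adjusted p of 0.235 in limma.

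The other subunits of the complex did not pass the test. ORC2 had 3395, 3358 and 3313 in control and 2816, 3072 and 3154 in knockdown clones. These groups did not overlap, with a difference of -0.16 (95% interval -0.33 to 0.01), but a second ORC2 probe set gave 0.11. ORC1, the subunit with regulated abundance in G1, differed by -0.17, ORC3 by 0.00, ORC5 by 0.07 and ORC6 by -0.06. CDC6, which loads the helicase with the complex, differed by 0.02 (95% interval -0.14 to 0.17). GMNN, the inhibitor of CDT1, differed by 0.02 with the same lower bound. CDT1 itself had an estimate of -0.01 with a wide interval of -0.55 to 0.53. Its clones went in different directions, at 0.45, -0.60 and 0.11, so a sizeable change of CDT1 in either direction lies within the interval.

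**Figure D3:**
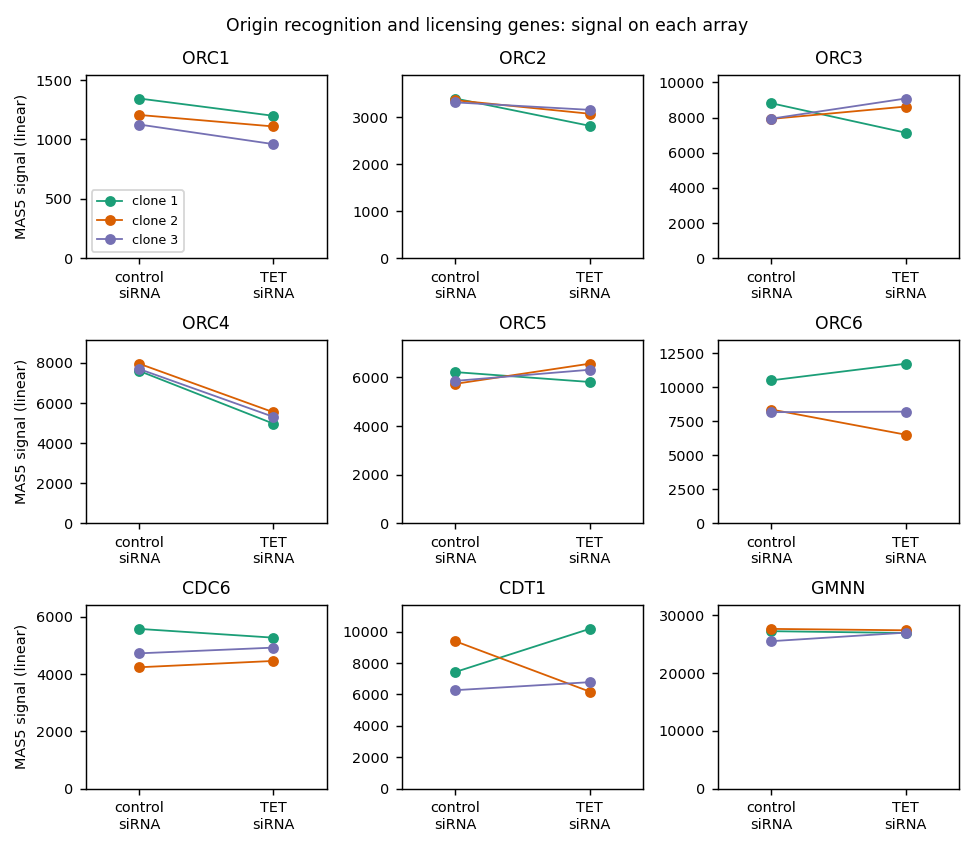
MAS5 signal (linear y axis from 0) of the 9 origin recognition and licensing genes in each control and knockdown array, with a line joining the 2 arrays of a clone. The ORC4 lines all descend, from 7598 to 7959 in control to 4971 to 5540 with TET siRNA, and the CDT1 lines cross.

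No subunit of the MCM helicase passed the test. MCM2 differed by -0.06, MCM3 by 0.04, MCM4 and MCM5 by 0.00, MCM6 by -0.10 and MCM7 by -0.03 on the log2 scale, all subunits of the hexamer that unwinds DNA. MCM6 gave 20860, 20146 and 20037 in control and 18050, 19362 and 19711 in knockdown clones. These groups did not overlap, but a dimmer MCM6 probe set differed by 0.19. MCM8, a related helicase with a role in recombination, differed by 0.10. MCM10, which acts in helicase activation, had signals of 6282, 4418 and 4321 in control and 3841, 4326 and 4497 in knockdown clones. At this probe set, the brightest, its estimate of -0.23 (95% interval -0.57 to 0.11) came from clone 1, at -0.71, and was 0.014 without that clone. The other MCM10 probe sets, with control means of 4851 and 5039 against 5007 at the brightest, gave -0.23 and -0.57. Their limma adjusted p-values were 0.193 and 0.182. The first was lower in all 3 clones, at -0.23, -0.38 and -0.09, with overlapping groups. At the second, clone 1 differed by -0.04 and clones 2 and 3 by -0.81 and -0.85, and the groups did not overlap. In the mean of its probe sets, MCM10 differed by -0.34 with an adjusted p of 0.0470 in limma.

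The origin firing factors also gave no call. GINS2, a subunit of the GINS complex, had 7020, 5896 and 6130 in control and 5966, 5351 and 5251 in knockdown clones. All 3 clones were lower, the groups overlapped, and the difference was -0.20 (SE 0.07, adjusted p = 0.201 in limma). Among the brightest probe sets of the 50 genes, this was the smallest adjusted p after that of ORC4. The other GINS2 probe sets, far dimmer, went the other way at 0.21 and 0.61. CDC7, the kinase that triggers firing, had 11667, 12669 and 11815 in control and 9305, 11716 and 11745 in knockdown clones. The lowest array was the knockdown of clone 1, the groups overlapped, and the difference was -0.15 (95% interval -0.32 to 0.02). Its activator DBF4 differed by -0.09 and CDC45, which joins the active helicase, by -0.17. GINS1 differed by 0.02, GINS3 by 0.09 and GINS4 by 0.18.

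Among the polymerases, POLA1 was the gene of smallest p. POLA1, the catalytic subunit of the polymerase that starts each strand, had 4488, 4717 and 4506 in control and 4770, 5225 and 5475 in knockdown clones. The groups did not overlap, and the difference of 0.17 (95% interval 0.02 to 0.33) had an adjusted p of 0.30 in limma. Its partner POLA2 differed by 0.15, with clones at 0.14, 0.16 and 0.16, while dimmer POLA2 probe sets gave -0.16 and -0.27. The primase subunits PRIM1 and PRIM2 differed by -0.01 and -0.04. The lagging-strand polymerase subunits POLD1, POLD2 and POLD3 differed by 0.00, -0.12 and -0.05. POLE, catalytic subunit of the leading-strand polymerase, had the highest estimate of all 50 genes, 0.25 (95% interval -0.06 to 0.56). Its clones disagreed in sign, at -0.19, 0.36 and 0.58. POLE2 differed by 0.03.

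PCNA, the sliding clamp, had 31484, 30837 and 32514 in control and 28149, 33988 and 31033 in knockdown clones. The groups overlapped fully, with a difference of -0.03 (95% interval -0.20 to 0.14). Of the clamp loader subunits, RFC5 had 11288, 10227 and 10833 in control and 11951, 12550 and 12035 in knockdown clones. These groups did not overlap, and the difference of 0.18 had an adjusted p of 0.273 in limma. Its other probe sets gave 0.11 and 0.13. RFC1 differed by 0.14, RFC2 by -0.03, RFC3 by 0.04 and RFC4 by -0.10. RPA1, the large subunit of the single-strand binding complex, had 15014, 13996 and 14359 in control and 15968, 16537 and 17079 in knockdown clones. Every knockdown array was above every control array, with a difference of 0.19 (95% interval 0.04 to 0.35) and an adjusted p of 0.230 in limma. Its other probe sets gave 0.21 and 0.01. The smaller subunits RPA2 and RPA3 differed by -0.05 and 0.01.

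FEN1, the flap nuclease, and LIG1, the ligase that joins Okazaki fragments, differed by -0.03 (95% interval -0.17 to 0.12) and 0.09 (-0.17 to 0.35). TYMS, which makes thymidylate, had 30012, 28282 and 28821 in control and 24774, 27361 and 25824 in knockdown clones. The groups did not overlap, and the difference of -0.16 had an adjusted p of 0.355 in limma. RRM1 and RRM2, the subunits of ribonucleotide reductase, differed by 0.05 and 0.02. The 2 RRM2 probe sets disagreed. The brighter gave 20585, 17387 and 17630 in control and 19253, 18305 and 18669 in knockdown clones, and the other gave 18039, 21266 and 20216 against 14934, 17579 and 16118. Only the second set of values was separate between the groups, with a difference of -0.29 (SE 0.07, adjusted p = 0.0717 in limma). The fork factors WDHD1, TIMELESS and CLSPN differed by 0.10, 0.08 and 0.14 at their brightest probe sets, each with clones of both signs. Leaving out 1 clone moved TIMELESS between 0.014 and 0.128 and CLSPN between 0.024 and 0.303. A dimmer TIMELESS probe set gave 0.45, and dimmer CLSPN probe sets gave 0.46, 0.59 and -0.19. The 0.45, 0.46 and 0.59 were positive in all 3 clones, with limma adjusted p-values of 0.258, 0.277 and 0.335. The other WDHD1 probe sets gave -0.01 and -0.07.

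The probe sets of a gene did not always share a sign. Of the 28 replication genes with at least 2 tested probe sets, 13 had 1 sign at all of them, 5 negative and 8 positive. The other 15 had both signs. Some of these values lay close to 0, as for FEN1 and RFC2, each at -0.03 and 0.03. Others came from far dimmer probe sets, as for GINS2. RRM2 fell under neither kind, with 0.02 and -0.29 at probe sets of similar brightness (control means 18534 and 19840). The same count over all genes was not made. None of the 40 tested probe sets other than the brightest passed the limma threshold, and the smallest adjusted p among them was the 0.0717 of RRM2. ORC4 was lower at both of its probe sets.

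**Figure D4:**
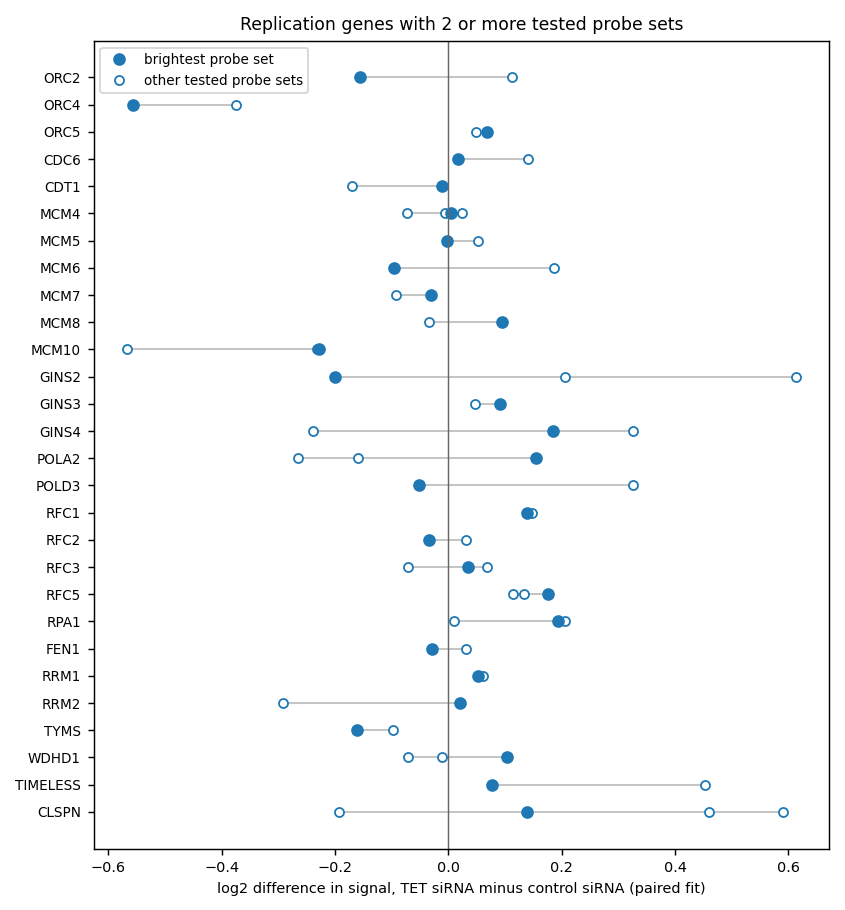
Log2 difference in signal (x axis) at each tested probe set of the 28 replication genes that have at least 2, with the brightest probe set filled and the others open. Both ORC4 points lie below 0, at -0.56 and -0.38, whereas GINS2 spans -0.20 to 0.61.

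The clones were also compared with each other. The range of the clone levels exceeded the size of the knockdown difference for 36 of the 50 replication genes (72%), and for 77.4% of all genes. A range over 3 clones contains array noise and tends to exceed a mean difference by noise alone. These shares therefore do not show that the clones differed. In the contrast of clone 1 with clones 2 and 3, with treatment as a term, 5 replication genes passed in limma against 16.9% of all genes. CDC45 was lower in clone 1 (-0.80 on the log2 scale), and ORC6 (0.51), MCM8 (0.41), RPA2 (0.28) and DBF4 (0.26) were higher. Each clone has 2 arrays in this contrast, which differ in treatment. ORC4 was not among these genes, with a clone difference of -0.08.

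**Figure D5:**
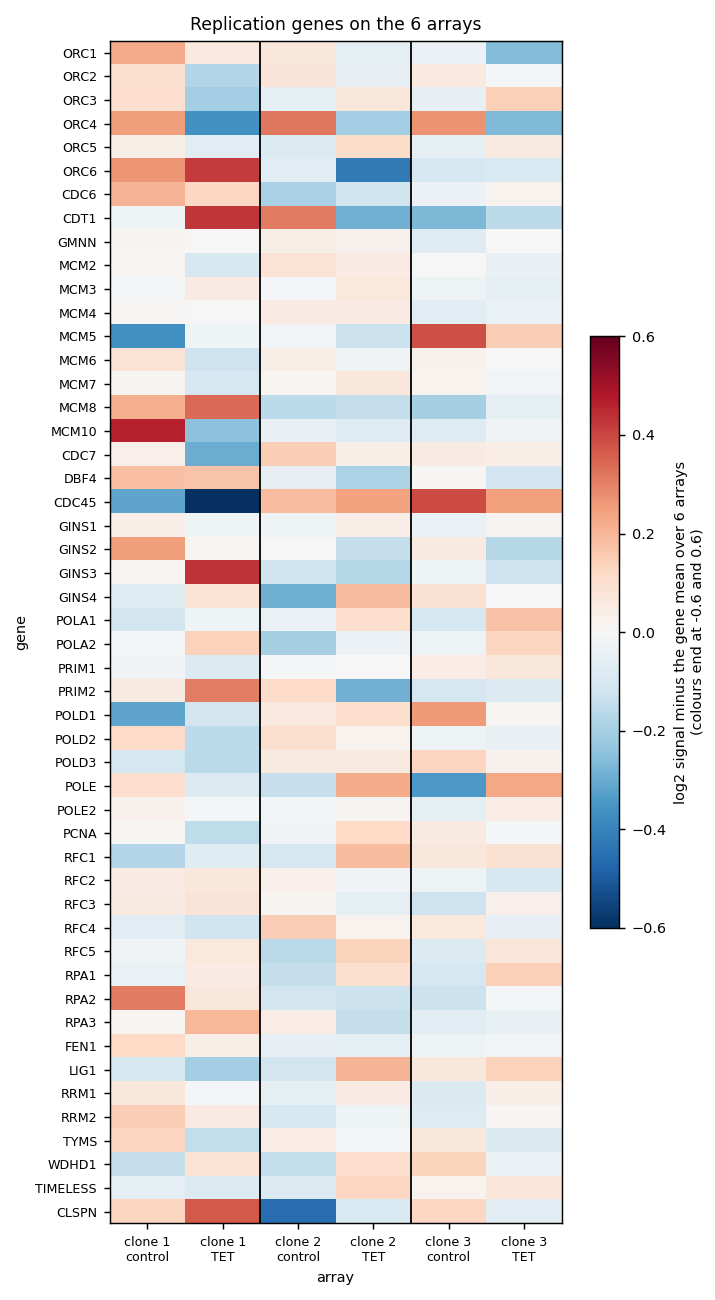
Log2 signal of each of the 50 replication genes minus its mean over 6 arrays (colour, ending at -0.6 and 0.6), with arrays ordered by clone. ORC4 is blue in all 3 knockdown columns, and CDC45 is blue in both columns of clone 1, where its difference from the other clones was -0.80.

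The 22 genes with an E2F match had a median difference of 0.02 and a range of -0.20 to 0.25, with 8 below 0 and none called. The 22 without one had a median of -0.03 and a range of -0.56 to 0.19, with 13 below 0 and ORC4, at the low end, called. No test of this split was made.

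Other genes around replication were read from lists of known function. Of 22 tested further replication factors none passed the limma threshold, and those of smallest p were RNASEH2C, a subunit of ribonuclease H2 (0.30, adjusted p = 0.0868), and DBF4B (0.46). Of 7 genes of nucleotide supply none passed, with SAMHD1, a deoxynucleotide hydrolase, at 0.33 (adjusted p = 0.0646 in limma) and SHMT1 at 0.65. None of 10 genes on a list for chromatin behind the fork passed, with UHRF1 at -0.23 and ASF1B at 0.26. Neither did any of 8 genes of licensing turnover, with CUL4B at -0.18 and UBE2C at -0.16, or of 9 replication stress genes, with WEE1 at 0.21. Of 21 genes of G1/S control, 1 passed: CCNE2, a cyclin E, was higher by 0.37 with an adjusted p of 0.0446 in limma, which was 0.797 without the clone as a block. Its signals were 4729, 3473 and 3012 in control and 6323, 4092 and 4156 in knockdown clones, so the groups overlapped although each clone was higher.

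A list of mitosis genes was read beside these. Of its 31 genes 4 passed as lower, against 0.836% of all genes: CCNB2 (-0.83, adjusted p = 5.45e-04), CEP55 (-0.55), NUSAP1 (-0.42) and CENPF (-0.33) in limma with the clone as a block, and the median was -0.11. Without the clone as a block CCNB2 alone of these passed (adjusted p = 0.00949), and the limma adjusted p-values of CEP55, NUSAP1 and CENPF were 0.0832, 0.454 and 0.525. The difference between the mitosis and replication lists was not tested.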

How the data were processed

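The authors deposited linear intensities for each probe set, summarised with MAS5 per the submitters' processing notes. The MAS5 version and the order of hybridisation were not given in the sources used here, and scanner files were not used. MAS5 leaves dim probe sets noisy. Of 54675 probe sets, 62 controls were set aside and 41091 had 1 gene. Log2 signals of the upper 50% by mean (27307 probe sets) were fitted in limma 3.58.1 (R 4.3.3) with the clone as a block, trended and robust empirical Bayes, two-sided, Benjamini-Hochberg adjusted over all tested probe sets at 0.05. TET genes were read without the filter. The clone number comes from the labels. Same-clone arrays deviated together (correlations 0.493, 0.234 and 0.236), although 1 pair of different clones reached 0.219.

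The genes, the lists, the tests and the paired fit were chosen with earlier results of these data known, including that the fit with the block calls 282 probe sets and the fit without it 4. Named genes are every passing replication gene, the 2 of smallest p in each role group, and in other lists up to 4 passing genes or the 2 of smallest p; the remaining replication genes were given by their values.

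The fit was tested on simulated data under a pair of noise models, and the outcome depended on the model. With each probe set's own residual spread, the first model tried, the fit called nothing. The second, added after that outcome, used the moderated spread, which is the spread the fit itself assumes. It recovered most changes, but with a share of false calls above the nominal level. Plain empirical Bayes called nothing under either model. Adjusted p-values near the threshold are therefore uncertain in both directions. Array correlations were taken over the tested probe sets after those over all probe sets had been seen, and both are given. Plots were drawn with matplotlib 3.10.9.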

Additional observations from a re-analysis of the deposited data

How the results depend on the processing

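Of the replication genes, 1 passed in the paired fit, ORC4, and it also passed with no brightness filter, with the upper 30% of probe sets, with a pseudocount, with quantile normalization and without each clone (1 gene each). With no replicate block 0 passed, with plain empirical Bayes 0, and with probe sets free of the s, x or a suffix 0 of 37, where 15 genes were negative. With the mean of all probe sets 2 passed, ORC4 and MCM10, where 0.804% of all genes passed. The share of all tested probe sets that passed was 1.03% in the paired fit and 0.128% with no filter. It was 2.24% with the upper 30%, 1.12% with a pseudocount and 0.846% with quantile normalization. Without clone 1, 2 or 3 it was 0.396%, 2.5% and 0.231%, and with no replicate block 0.0146%. Negative genes numbered 21 to 31 with 1 clone left out. The clone contrast, whose alternatives were chosen after seeing the data, called 5 genes, where 16.9% of all genes passed. It called 5 with a pseudocount, and 6 each with the upper 30% of probe sets, quantile normalization and the mean of all probe sets. It called 3 with no filter, 0 with plain empirical Bayes and 2 of 37 without suffixed probe sets. The share over all genes was not counted for these alternatives. Among named genes, the sign turned in the mean of all probe sets for MCM6 (0.045), GINS2 (0.21), POLA2 (-0.090) and FEN1 (0.0011), without suffixed probe sets for GINS2 (0.21) and POLA2 (-0.16), without clone 1 for MCM10, RPA2 and FEN1, and without clone 2 for LIG1. At the brightest probe sets, leaving out 1 clone at a time gave -0.37 to 0.014 for MCM10 and -0.133 to 0.051 for RPA2. It gave -0.048 to 5.2e-04 for FEN1 and -0.021 to 0.189 for LIG1. The cause was not tested. The adjusted p of ORC4 in limma ranged from 2.4e-04 to 0.321 over 11 alternatives. Plain empirical Bayes passed no probe set on the arrays, so its 0 says little about stability. The number of arrays, 3 per group, limits the precision.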
